A study of Homo sapiens with 8 samples.

Results

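Chromosomes 4, 13 and 18 were followed here through 6 lists of ChIP-seq peaks from GM12878, an established lymphoblastoid cell line made from B lymphocytes. The members are all peaks that the lists place on these chromosomes, a rule that uses position alone. They number 19621 of the 224923 peaks in all lists. The proteins mapped were SMC1A, NIPBL and MED1, with 2 libraries each, and the cells received no treatment. The 2 whole cell extract (WCE) libraries, without antibody, were pooled as the control for every list. Whether replicates were separate cultures is not said in the labels, so p-values measure only the spread between these libraries, which may be technical. Positions are hg19 coordinates, 1-based, and sites are given by position alone because genes of that build were not analysed here.

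SMC1A is part of cohesin, the ring-shaped complex that extrudes and holds chromatin loops and is halted by the insulator protein CTCF at many of its lasting sites. NIPBL is the cofactor that loads cohesin and drives its movement along DNA, and mutations in its gene are the commonest cause of Cornelia de Lange syndrome. MED1 belongs to Mediator, which links transcription factors on enhancers to RNA polymerase II at promoters, so it marks active regulatory DNA. Chromosomes 13 and 18 are known for their few genes, and an extra copy of either can be compatible with live birth. Chromosome 4 is large and carries long gene deserts. Chromosomes of this kind hold more late-replicating chromatin at the nuclear edge than gene-dense ones do.

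The label of gene-poor chromosomes held in the RefSeq annotation of a later build, GRCh38.p14, which was used only to count genes. Chromosomes 4, 13 and 18 had 770, 338 and 270 protein-coding genes, or 4.03, 3.56 and 3.46 per Mb of the span between the outermost peaks of each. These were the 3 lowest of the 22 autosomes. Together they had 3.79 genes per Mb, against 7.32 per Mb on the other 19 autosomes, a ratio of 0.517. The lowest of the other autosomes was chromosome 8, at 4.89 per Mb.

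Each library placed 7.55% to 9.65% of its autosomal peaks on chromosomes 4, 13 and 18. Relative depth, read from the lowest control estimate that at least 20 peaks of a list share, was lowest in SMC1A replicate 2, at 0.739 of that of MED1 replicate 1, the deepest. The lowest fragment pileup in a list was 7 to 11, and weaker binding was not detectable at this depth. MED1 replicate 2 was far longer than MED1 replicate 1, with 3420 and 1336 peaks on the 3 chromosomes, and this gap bears on several results below. Density was counted per Mb between the outermost peaks of all 6 lists, a span of 364 Mb on chromosomes 4, 13 and 18 and 2424 Mb on the other autosomes.

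All 3 proteins had fewer peaks per Mb on chromosomes 4, 13 and 18 than on the other autosomes, and MED1 was the sparsest there relative to the rest. SMC1A, the cohesin subunit, had 14.5 and 17.4 peaks per Mb in replicates 1 and 2 on these chromosomes, against 20.4 and 24.7 on the other autosomes. NIPBL, its loader, had 5.38 and 3.55 peaks per Mb, against 7.81 and 5.64. MED1, the Mediator subunit, had 3.67 and 9.40 peaks per Mb, against 6.75 and 16.7. The ratio of the 2 densities was therefore 0.712 and 0.704 for SMC1A, 0.689 and 0.629 for NIPBL, and 0.544 and 0.564 for MED1. The ranges of the factors did not overlap, with SMC1A highest, NIPBL between and MED1 lowest. The order of SMC1A and NIPBL depended on list length, since with the 14972 strongest peaks of each list the ratios were 0.680 and 0.672 for SMC1A and 0.685 and 0.629 for NIPBL, while MED1 stayed lowest at 0.543 and 0.532.

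The density was lower on chromosomes 4, 13 and 18 in 6 of 6 libraries. The mean log2 ratio was -0.65 ± 0.17 (SD, n = 6 libraries), a 0.637-fold density. In a two-sided exact permutation test, with the chromosome sets swapped within libraries, p was 0.03125, the smallest that 6 libraries can give. After Benjamini-Hochberg adjustment over the 6 measures tested in this way it was 0.0938, which did not pass 0.05. With 6 libraries no measure could pass after adjustment unless most of the 6 measures reached the smallest p. Between factors, the log2 ratio of SMC1A lay 0.35 above that of MED1 and 0.10 above that of NIPBL, and the log2 ratio of NIPBL lay 0.25 above that of MED1. Each of these 3 differences gave p = 0.33 by exact permutation of the 4 libraries (two-sided) and adjusted p = 0.33, the smallest that 2 libraries against 2 can give. The order of the factors therefore cannot be resolved by this test.

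**Figure D1:**
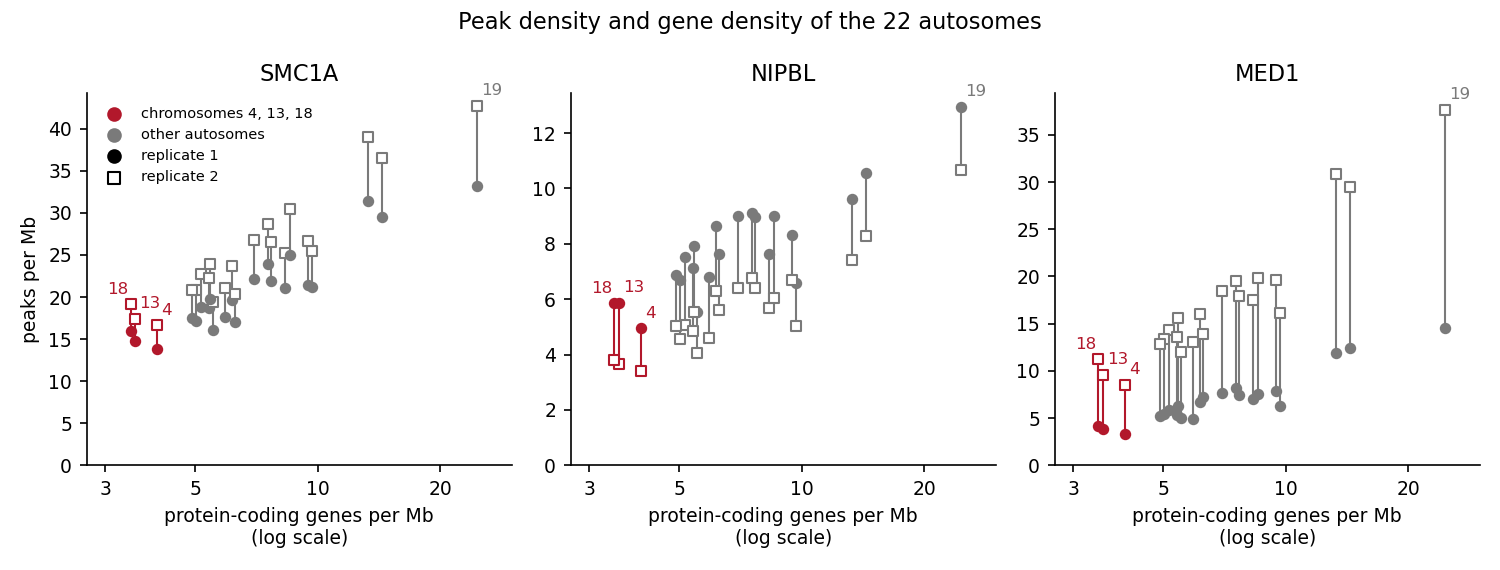
Peaks per Mb (vertical axis, from 0) against protein-coding genes per Mb (horizontal log axis) for each of the 22 autosomes, with a filled circle for replicate 1 and an open square for replicate 2 joined by a line. Chromosomes 4, 13 and 18 (red) lie at the left, at 4.03, 3.56 and 3.46 genes per Mb, and in the MED1 panel they are also the 3 lowest in both replicates, while chromosome 19 is the highest in every panel.

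Each of the 3 chromosomes showed the low densities on its own. Chromosome 4 had the lowest density of all 22 autosomes in every library, from 3.34 peaks per Mb in MED1 replicate 1 to 16.6 in SMC1A replicate 2. Chromosome 13 was second lowest in every library except NIPBL replicate 1. There it had 5.87 peaks per Mb, above chromosome 9 at 5.54 and chromosome 18 at 5.86. Chromosome 18 was the third lowest in all 6 libraries. By mean density the closest of the other autosomes was chromosome 9. Its mean densities over both replicates were 17.7 for SMC1A, 4.79 for NIPBL and 8.52 for MED1. On chromosomes 4, 13 and 18 the SMC1A means were 15.2, 16.1 and 17.5, the NIPBL means 4.17, 4.76 and 4.83, and the MED1 means 5.94, 6.75 and 7.71 peaks per Mb. Chromosome 9 thus lay just above these chromosomes for SMC1A, within their range for NIPBL, and farther above them for MED1. Across the 22 autosomes the mean density went with gene density, with Spearman's rho of 0.879 for SMC1A, 0.797 for NIPBL and 0.896 for MED1, given as a description since all points share the same libraries.

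The balance between cohesin and Mediator was shifted in the same direction on each of them. SMC1A peaks per MED1 peak numbered 4.14, 3.79 and 3.79 on chromosomes 4, 13 and 18 in replicate 1, against 2.28 to 3.56 on the other autosomes. In replicate 2 these ratios were 1.95, 1.81 and 1.71, against 1.13 to 1.64. The 3 chromosomes had the 3 highest ratios of the 22 autosomes in both replicates. The ratio of SMC1A to NIPBL peaks did not set them apart. It was 2.80, 2.52 and 2.72 in replicate 1, against 2.23 to 3.27, and 4.89, 4.77 and 5.04 in replicate 2, against 3.64 to 5.27.

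Counted per gene, which scales all 3 factors alike, MED1 was near even between the chromosome sets and the other 2 were not. MED1 had 0.970 and 2.48 peaks per protein-coding gene on chromosomes 4, 13 and 18, against 0.921 and 2.28 on the other autosomes, ratios of 1.05 and 1.09. For SMC1A the counts were 3.84 and 4.59 peaks per gene, against 2.79 and 3.37, ratios of 1.38 and 1.36. NIPBL had 1.42 and 0.938 peaks per gene, against 1.07 and 0.771, ratios of 1.33 and 1.22. Summed over each chromosome set, the MED1 counts per gene thus differed by less than 10%, whereas the SMC1A count per gene was higher on the 3 chromosomes in both libraries. The single chromosomes were less even than their sum. MED1 replicate 1 had 638, 370 and 328 peaks on chromosomes 4, 13 and 18, which have 770, 338 and 270 genes. The other autosomes were uneven too. Chromosome 19 had 14.5 MED1 replicate 1 peaks and 24.7 genes per Mb, and chromosome 10 had 6.29 and 5.42. The near-even sums therefore do not show that MED1 follows gene number from chromosome to chromosome. No test was made of these ratios.

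A region below is the merge of overlapping peaks of both replicates of a factor, and each region used was found in both. Chromosomes 4, 13 and 18 held 4792 SMC1A, 985 NIPBL and 1106 MED1 regions, against 44598, 10355 and 13537 on the other autosomes. In 1 Mb bins SMC1A was spread over nearly the whole length, while MED1 and NIPBL were gathered in few bins. Of the 367 bins on the 3 chromosomes, 10 had no SMC1A region, 146 no NIPBL region and 142 no MED1 region. As shares of bins these are 2.72%, 39.8% and 38.7%, against 5.13%, 30.9% and 28.9% of the 2438 bins on the other autosomes. The median bin held 12 SMC1A, 1 NIPBL and 1 MED1 regions on chromosomes 4, 13 and 18, against 16, 2 and 3 on the other autosomes.

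The densest 10% of bins, 37 in number, held 47.0% of the MED1 and 46.8% of the NIPBL regions of chromosomes 4, 13 and 18, but 25.0% of the SMC1A regions. On the other autosomes these shares were 39.2% for MED1, 41.7% for NIPBL and 24.7% for SMC1A. By this measure MED1 and NIPBL were more concentrated on chromosomes 4, 13 and 18 as a set, and SMC1A was about as even as elsewhere. Fewer regions per bin can by themselves raise this share and the share of empty bins, both between chromosome sets and between factors. Counts were not matched, so a difference in clumping was not tested. By chromosome, the densest 10% of bins held 52.0%, 45.7% and 39.9% of the MED1 regions on 4, 13 and 18. For NIPBL these shares were 50.5%, 43.5% and 44.3%. The MED1 share on chromosome 18 was therefore close to the 39.2% of the other autosomes. Chromosome 4 was the most uneven, with 50% of its MED1 regions in 19 of 192 bins and 50% of its NIPBL regions in 20. On chromosome 13 this took 12 and 13 of 96 bins, and on chromosome 18 it took 11 and 10 of 79. Bins rich in MED1 were also rich in NIPBL, with a Spearman's rho of 0.851 over 357 bins with any region. SMC1A followed MED1 with a rho of 0.814 and NIPBL with 0.739. On the other autosomes, over 2314 bins, the 3 values were 0.871, 0.862 and 0.794. These are descriptions, since neighbouring bins share libraries and gene content.

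**Figure D2:**
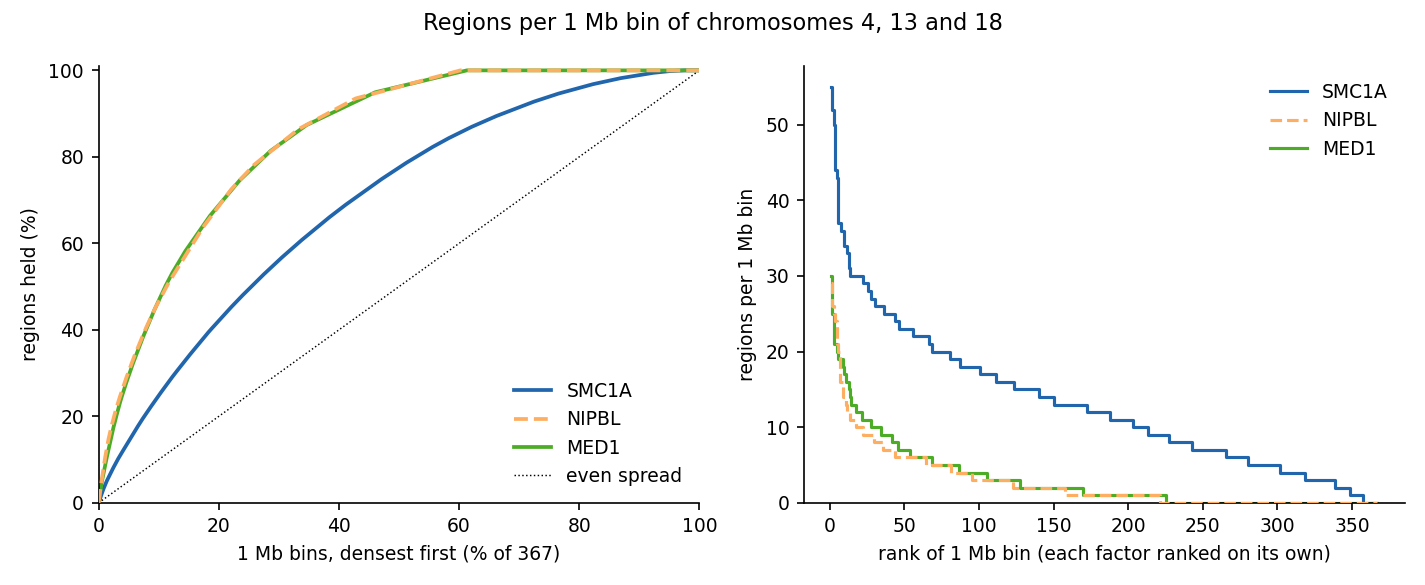
The left panel gives the share of each factor's regions (vertical axis, %) held by the densest 1 Mb bins of chromosomes 4, 13 and 18 (horizontal axis, % of the 367 bins), and the right panel gives the regions per bin by rank. The MED1 and NIPBL curves lie almost on each other, with 47.0% and 46.8% of regions in the densest 10% of bins, while the SMC1A curve lies nearer the dotted line of an even spread.

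The bins richest in MED1 lay mostly on chromosome 4, which also holds 192 of the 367 bins. First came the bin from 185000001 to 186000000, which had 30 MED1, 29 NIPBL and 55 SMC1A regions and was also the richest in NIPBL. Its peaks numbered 44 and 59 in the MED1 libraries, 53 and 39 in the NIPBL libraries and 65 and 76 in the SMC1A libraries. Of its 29 NIPBL regions, 26 held both partners. Next came the bin from 40000001 to 41000000 on chromosome 4, with 25 MED1, 26 NIPBL and 44 SMC1A regions. It holds the widest MED1 region of the chromosome, 11049 bp from 40193613 to 40204661, which contained 5 NIPBL and 4 SMC1A regions. After it came the bins from 84000001 and from 39000001 on chromosome 4, which had 21 MED1 regions each, with 14 and 11 NIPBL regions. Last of the 5 was the bin from 60000001 to 61000000 on chromosome 18, with 20 MED1, 20 NIPBL and 37 SMC1A regions. These counts rest on MED1 replicate 1. Without it the same 5 bins had 59, 50, 46, 37 and 54 MED1 regions, and without MED1 replicate 2 the second had 40. The ranking also depends on the library. By peaks of MED1 replicate 1 alone, the bin from 39000001 had 22, and the bins from 56000001 and 60000001 on chromosome 18 had 29 each.

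Among the 5 bins richest in NIPBL, the 3 others were led by the bin from 99000001 to 100000000 on chromosome 13. It had 25 NIPBL, 19 MED1 and 52 SMC1A regions, with 49 and 31 peaks in the NIPBL libraries. The bin from 38000001 on chromosome 4 had 24 NIPBL and 17 MED1 regions, and the bin from 56000001 on chromosome 18 had 21 and 16. Without NIPBL replicate 2 the NIPBL counts were 53 and 44 in the first pair of bins, 49 in that of chromosome 13 and 35 in that of chromosome 18, which had 33 without NIPBL replicate 1. With only peaks of −log10 q of at least 5 the count was 16 in the bin of chromosome 13 and 12 in that of chromosome 18. Since 3 of the named bins of chromosome 4 are neighbours, the stretch from 38000001 to 41000000 was summed after their values were seen. It held 63 MED1 regions, 11.95% of those on the chromosome, and 61 NIPBL regions, 12.7%, but 108 SMC1A regions, 4.47%.

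Bins this rich in MED1 were rare on the gene-poor chromosomes. With at least 20 MED1 regions there were 5 of 367 bins, or 1.36%, against 126 of 2438, or 5.17% (exact Clopper-Pearson 95% interval 4.32 to 6.12). At least 21 NIPBL regions lay in 5 of 367 bins, 1.36%, against 55 of 2438, 2.26% (1.70 to 2.93). All intervals here are of this kind and cover counting error only. The cutoffs are the counts of the last named bin of each list, so the numbers describe these bins. The 5 of 367 was thus fixed by the naming rule and has no interval. The cutoffs also differ between the factors, so the factors cannot be compared here.

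Long stretches of chromosomes 4, 13 and 18 carried cohesin and neither Mediator nor the loader. Of the 357 bins with an SMC1A region, 110 had no MED1 or NIPBL region, 30.8% (26.1 to 35.9), against 466 of 2313, 20.1% (18.5 to 21.8), on the other autosomes. By chromosome the shares were 32.4% (25.8 to 39.6), 26.9% (18.2 to 37.1) and 31.6% (21.4 to 43.3) on 4, 13 and 18. The 110 bins held 634 SMC1A regions, 13.2% of those on the 3 chromosomes, against 6.61% on the other autosomes. The median bin of this kind had 5 SMC1A regions in both sets, and the fullest had 23 on chromosome 4. A MED1 or NIPBL region lay in 0 of the 10 bins without SMC1A on these chromosomes and in 1 of 125 on the other autosomes. These counts say little about the reverse arrangement. SMC1A regions are far more numerous, and most of the 10 bins had no peak in any library.

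These bins were not all free of peaks called in a single library. Of the 110, 40 had a peak of MED1 replicate 2, 0 a peak of MED1 replicate 1, 20 a peak of NIPBL replicate 1 and 8 a peak of NIPBL replicate 2. The 0 nearly follows from the definition of these bins. On these chromosomes 98.9% of MED1 replicate 1 peaks met a replicate 2 peak and so formed a region. The share with a MED1 replicate 2 peak was 36.4% (27.4 to 46.1), against 39.3% (34.8 to 43.9) on the other autosomes. That left 61 of the 110 bins with no peak in any MED1 or NIPBL library, 55.5% (45.7 to 64.9), against 261 of 466 on the other autosomes, 56.0% (51.4 to 60.6), with overlapping intervals. The bins formed 57 runs of neighbours, and 10 of the runs covered at least 3 bins. On the other autosomes there were 294 runs, 40 of them of at least 3 bins. Per 100 Mb this makes 2.75 such long runs on the gene-poor chromosomes and 1.65 on the other autosomes. The longest run covered 10 bins, from 58000001 to 68000000 on chromosome 4, against a longest run of 8 bins on the other autosomes.

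Measured between neighbouring MED1 or NIPBL regions, 85 stretches of at least 1 Mb with SMC1A made up 55.9% of the spanned length of chromosomes 4, 13 and 18. The other autosomes had 451 such stretches, 41.8% of their span. The stretches held 1497 SMC1A regions, 31.2% of those on the 3 chromosomes, against 17.7% on the other autosomes. By chromosome the share of length was 57.7% on 4, 53.4% on 13 and 54.5% on 18, with chromosomes 9 (57.3%) and 21 (55.0%) as the closest of the others. Some stretches include centromeres or other gaps of at least 1 Mb without an SMC1A region. With those gaps taken out of the stretches but kept in the span, the share of length was 48.7% on the gene-poor chromosomes and 34.9% on the other autosomes. Within the stretches SMC1A was about as dense in both sets, at 7.36 and 7.79 regions per Mb, and outside them it had 20.5 and 26.01 regions per Mb.

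**Figure D3:**
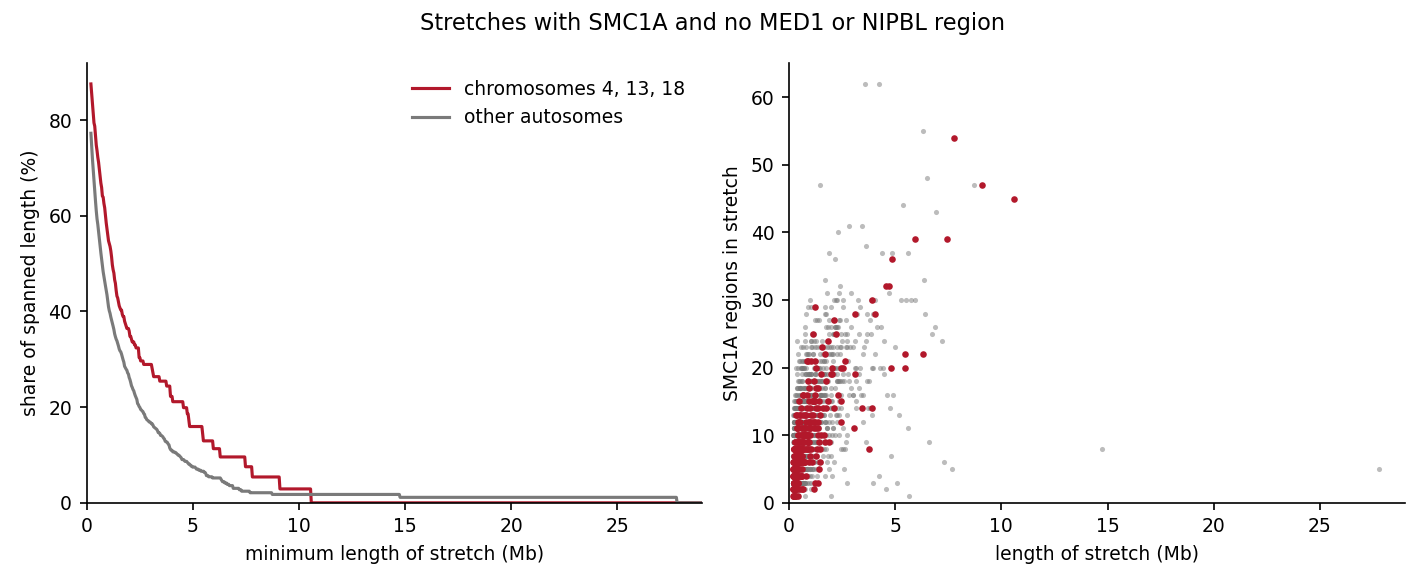
The left panel gives the share of spanned length (vertical axis, %) in stretches with SMC1A and no MED1 or NIPBL region that are at least as long as the horizontal axis says (Mb), and the right panel gives the SMC1A regions in each stretch against its length (points, stretches of at least 0.2 Mb). At 1 Mb chromosomes 4, 13 and 18 (red) stand at 55.9% and the other autosomes (grey) at 41.8%, and the curves cross beyond the longest red stretch, 10.6 Mb, where grey stretches of up to 27.8 Mb with few SMC1A regions remain.

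The 2 longest stretches with at least 5 SMC1A regions on each chromosome were followed one by one. On chromosome 4 the first ran from 57845360 to 68424172, 10.6 Mb, with 45 SMC1A regions at a median spacing of 156 kb and no gap above 0.823 Mb. Its SMC1A lists had 50 and 52 peaks, the MED1 lists 0 and 3 and the NIPBL lists 1 and 0. The second, from 130015146 to 139111543, was 9.10 Mb long and had 47 SMC1A regions and a longest gap of 1.22 Mb, with 0 and 9 MED1 peaks and 6 and 1 NIPBL peaks. On chromosome 13 the first ran from 66712961 to 74498708, 7.79 Mb, with 54 SMC1A regions, the most of the 6 stretches, and a median spacing of 82.1 kb. The second ran from 84550238 to 91999262, 7.45 Mb, with 39 SMC1A regions. On chromosome 18 the first ran from 61616818 to 67553241, 5.94 Mb, with 39 SMC1A regions and a longest gap of 1.11 Mb. The second, from 13727106 to 19180163, spans the centromere, and 4.14 of its 5.45 Mb held no SMC1A region.

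Every one of the 6 stretches had 0 peaks of MED1 replicate 1 and 3 to 9 peaks of MED1 replicate 2. The 0 nearly follows from the definition of a stretch, since almost all MED1 replicate 1 peaks belong to a region. Of the 6, 3 depended on single libraries, in that they broke up when a factor was read from its longer list. Without MED1 replicate 1 the longest part free of MED1 and NIPBL was 4.53 Mb in the second stretch of chromosome 4 and 4.70 and 3.62 Mb in those of chromosome 13. Without NIPBL replicate 2 it was 4.82, 3.43 and 4.28 Mb in the same order. SMC1A regions inside the 6 stretches had median fold enrichments from 8.61 to 12.47 in replicate 1 and from 8.48 to 12.9 in replicate 2. Fold enrichment is the authors' value for the summit of a peak over the local control.

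Lone SMC1A regions were nearly as strong in the bins without MED1 or NIPBL as in the other bins. On chromosomes 4, 13 and 18 the 634 regions in such bins had median fold enrichments of 10.48 and 11.7 in replicates 1 and 2, against 11.6 and 13.01 at the 3315 SMC1A regions with neither partner in bins that held MED1 or NIPBL. The quartiles in replicate 1 were 7.52 and 15.7 in bins without MED1 or NIPBL and 6.83 and 18.1 in the other bins, so the groups overlapped widely. On the other autosomes the medians were 11.0 and 12.2, against 11.5 and 13.1.

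Sorted by partners, SMC1A and NIPBL regions stood alone more often on chromosomes 4, 13 and 18 than on the other autosomes, and MED1 regions less often. Of the SMC1A regions, 3949 of 4792 had neither partner, 82.4% (81.3 to 83.5), against 78.7% (78.4 to 79.1). Both partners were at 438, 9.14% (8.34 to 9.99), against 11.3% (11.0 to 11.6). MED1 alone was at 5.32% (4.70 to 5.995), against 6.66% (6.43 to 6.89), and NIPBL alone at 3.13% (2.66 to 3.66), against 3.33% (3.16 to 3.50). The intervals for neither, both and MED1 alone do not overlap between the chromosome sets, and those for NIPBL alone do.

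Of the NIPBL regions, 184 of 985 had neither partner, 18.7% (16.3 to 21.3), against 14.9% (14.2 to 15.6) on the other autosomes. Both partners were at 43.7% (40.5 to 46.8), against 48.1% (47.1 to 49.0), while MED1 alone was at 22.2% and 22.5% and SMC1A alone at 15.4% and 14.5%. Of the 184 regions, 163 overlapped a partner peak called in a single replicate, 152 of them one of MED1 replicate 2. That is 88.6% (83.1 to 92.8), against 89.2% (87.5 to 90.7) on the other autosomes, and 21 NIPBL regions met no SMC1A or MED1 peak at all.

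Of the MED1 regions, 307 of 1106 had neither partner, 27.8% (25.1 to 30.5), against 33.4% (32.6 to 34.2). NIPBL was present at 53.8% of them (50.8 to 56.8), against 48.9% (48.0 to 49.7), and SMC1A at 54.8% (51.8 to 57.8), against 52.1% (51.2 to 52.9). Chromosomes 4 and 13 had the 2 lowest shares of MED1 regions with neither partner among the 22 autosomes, at 26.6% and 27.3%, and chromosome 18 had 30.6%. The share of SMC1A regions with neither was highest of all on chromosome 4, at 83.7% (82.2 to 85.2), and was 80.5% on chromosome 13 and 81.8% on chromosome 18. On chromosomes 13 and 18 it lay within the range of the other autosomes, below chromosome 7 with 82.6% and chromosome 11 with 82.4%. For NIPBL the 3 chromosomes had 19.5%, 18.2% and 17.4% with neither, and of the other autosomes only chromosome 7, at 19.1%, lay among them.

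**Figure D4:**
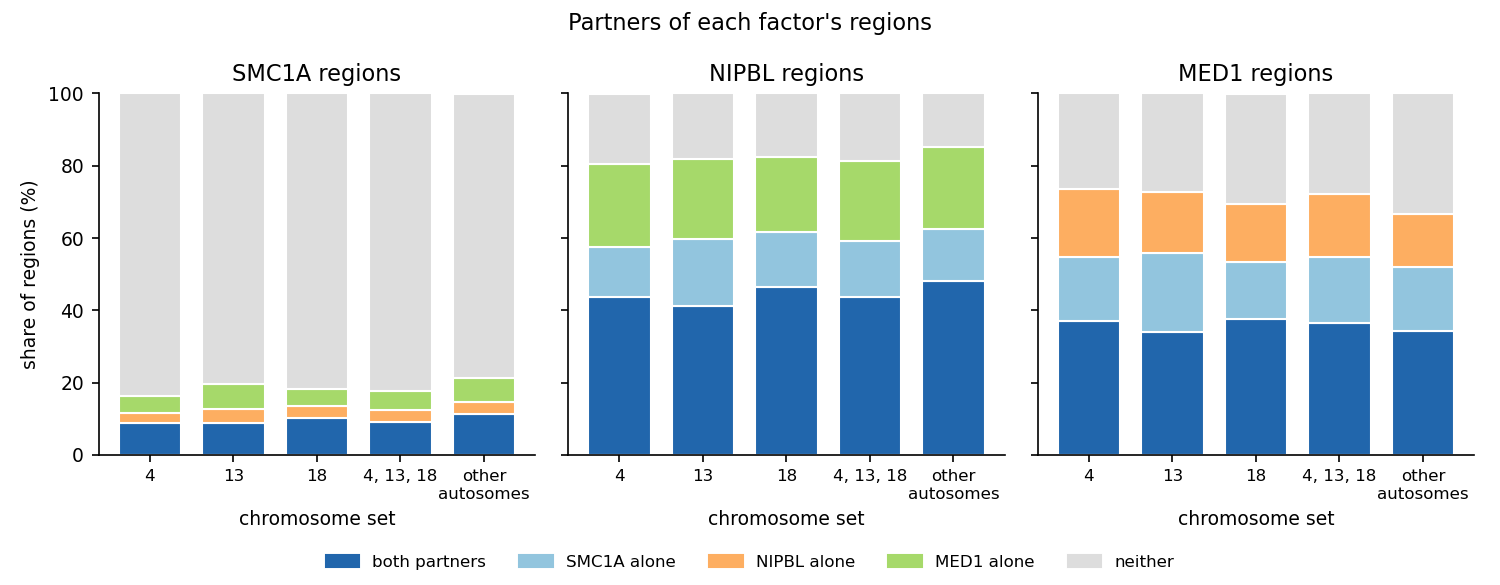
Stacked bars give the share of SMC1A, NIPBL and MED1 regions (vertical axis, %) with both partners, with a single partner and with neither, on chromosomes 4, 13 and 18, on these together and on the other autosomes. The grey part at the top, regions with neither partner, is larger on the 3 chromosomes together for SMC1A (82.4% against 78.7%) and NIPBL (18.7% against 14.9%) and smaller for MED1 (27.8% against 33.4%).

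Library by library, the share of peaks that overlapped no region of the other factors was higher on chromosomes 4, 13 and 18 in all 4 SMC1A and NIPBL libraries and lower in both MED1 libraries. For SMC1A it was 81.7% and 80.3% in replicates 1 and 2, against 78.2% and 76.5%. For NIPBL it was 32.5% and 22.97%, against 27.8% and 19.3%. For MED1 it was 32.6% and 58.0%, against 38.2% and 58.7%, so that the difference in replicate 2 was -0.716 points. Over all 6 libraries the mean difference of 1.55 ± 3.97 points (SD, n = 6) did not pass the exact permutation test (two-sided, p = 0.375, adjusted p = 0.45), since its sign differed between factors. The differences over regions depended on single libraries in size but not in direction. Without MED1 replicate 1 they were 7.16 points for SMC1A in place of 3.67, 1.12 for NIPBL in place of 3.81 and -0.716 for MED1 in place of -5.61, and without SMC1A replicate 1 that of MED1 was -2.43. Without chromosome 4 that of SMC1A was 2.36.

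The makeup of the bins differed between the chromosome sets. Bins with 0 MED1 regions made up 37.0% of the SMC1A-holding bins on chromosomes 4, 13 and 18, against 25.1% on the other autosomes, and bins with over 10 made up 7.56%, against 20.1%. Bins were then sorted by their MED1 regions. MED1 is itself part of the partner classes, so the share with neither is high by construction where MED1 is absent. The share of SMC1A regions with neither partner was slightly higher on the gene-poor chromosomes in bins with 0 MED1 regions, with overlapping intervals, and lower in the other 4 kinds of bin. It was 99.4% (98.6 to 99.8), against 99.0% (98.6 to 99.3), in bins with 0 MED1 regions, and 93.5% (91.9 to 94.9), against 94.5% (93.9 to 95.05), in bins with 1 to 2. In bins with 3 to 5 it was 83.7% (81.4 to 85.9), against 87.1% (86.3 to 87.9), and with 6 to 10 it was 75.9% (73.0 to 78.6), against 78.9% (78.1 to 79.7). In bins with over 10 it was 55.9% (52.5 to 59.3), against 64.8% (64.1 to 65.6).

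When the bins of the gene-poor chromosomes were weighted to the makeup of the other autosomes, the share of lone SMC1A regions was 74.0%, against 78.7%. The difference thus turned to -4.77 points, where it had been 3.67 unweighted. For NIPBL it turned to -1.13 points, where it had been 3.81. For MED1 it kept its direction, at -6.71 points, and the share with neither was lower on chromosomes 4, 13 and 18 in each of the 4 kinds of bin that hold MED1. This weighting was chosen after the data were seen and depends on the MED1 lists. Without MED1 replicate 1 the weighted differences were 1.16 points for SMC1A, 0.341 for NIPBL and -1.40 for MED1. With regions found in either replicate they were 0.361, 0.619 and -2.93 points. The turn of the SMC1A and NIPBL differences was therefore lost under both settings, and its cause was not tested.

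**Figure D5:**
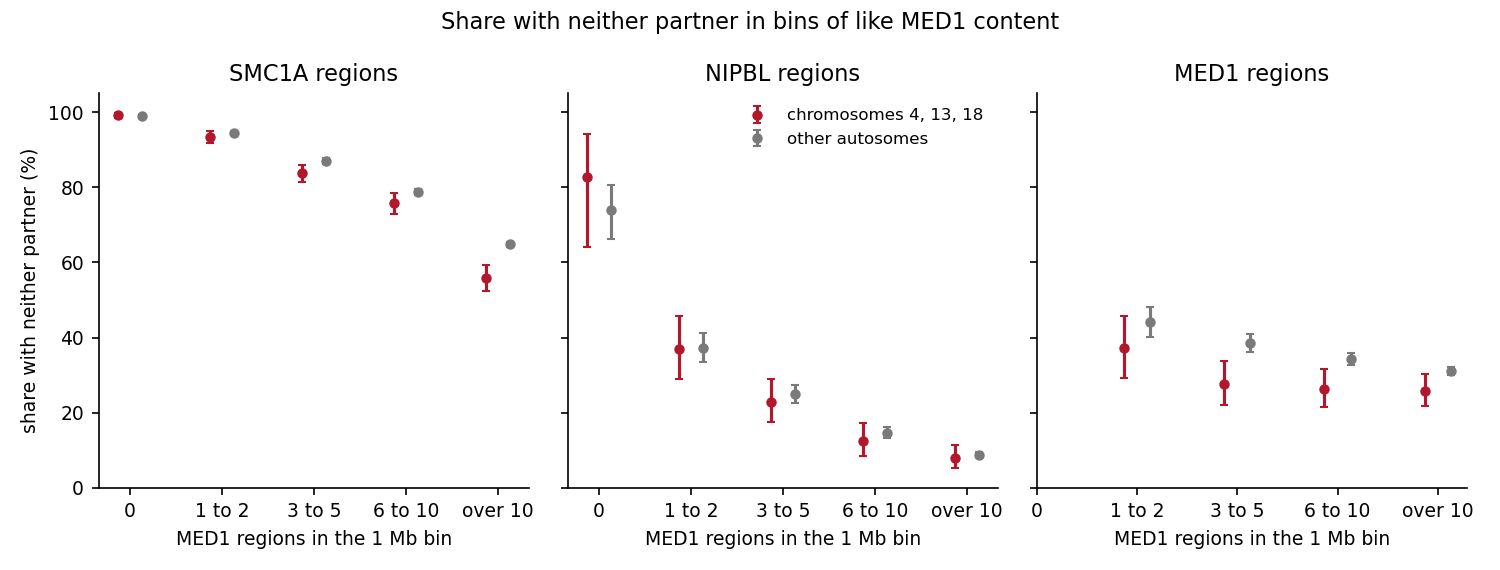
Share of regions with neither partner (vertical axis, %, points with exact 95% intervals) by the number of MED1 regions in the 1 Mb bin (horizontal axis), for chromosomes 4, 13 and 18 (red) and the other autosomes (grey). In the SMC1A panel the red point lies below the grey one from 1 to 2 MED1 regions upward, with the widest gap in bins with over 10 (55.9% against 64.8%), and in the MED1 panel it lies below in every kind of bin.

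The mean number of SMC1A regions in a bin was lower on the gene-poor chromosomes, except in bins with 3 to 5 MED1 regions, where it was nearly equal. Bins with 0 MED1 regions held 6.33 ± 3.88 SMC1A regions on chromosomes 4, 13 and 18 (SD, n = 132 bins), against 6.98 ± 4.45 (SD, n = 580 bins). Bins with 1 to 2 held 11.7 ± 4.76 (SD, n = 98 bins), against 13.4 ± 5.64 (SD, n = 454 bins). Bins with 3 to 5 held 17.7 ± 5.43 (SD, n = 59 bins), against 17.8 ± 6.39 (SD, n = 406 bins). There the median was higher, at 18 against 17. Mean SMC1A peaks in these bins were 19.1 against 19.5 in replicate 1 and 23.8 against 23.2 in replicate 2. Bins with 6 to 10 held 22.7 ± 5.16 (SD, n = 41 bins), against 24.6 ± 7.15 (SD, n = 407 bins). Bins with over 10 held 31.0 ± 11.1 (SD, n = 27 bins), against 37.0 ± 10.49 (SD, n = 466 bins). For NIPBL the direction was mixed. In the same bins NIPBL regions numbered 0.220 ± 0.529 with 0 MED1 regions, against 0.267 ± 0.641, and 1.38 ± 1.26 with 1 to 2, against 1.41 ± 1.31. They numbered 3.85 ± 2.47 with 3 to 5 MED1 regions, against 3.14 ± 2.20, and 5.93 ± 2.37 with 6 to 10, against 5.87 ± 3.15. Bins with over 10 held 13 ± 6.96, against 12.7 ± 6.93. These differences were not tested, since bins of the same libraries are not replicates.

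Peaks on chromosomes 4, 13 and 18 differed little in height or width from those elsewhere. Median fold enrichments of SMC1A were 8.94 and 7.79 in replicates 1 and 2, against 8.45 and 7.37. For NIPBL they were 3.88 and 4.08, against 3.86 and 4.07, and for MED1 3.79 and 4.72, against 3.81 and 4.82. The mean log2 ratio of 0.02 ± 0.05 (SD, n = 6) did not pass the exact permutation test (two-sided, p = 0.344, adjusted p = 0.45). Median widths were lower in 6 of 6 libraries but by a mean log2 ratio of -0.03 ± 0.02 only (SD, n = 6, exact permutation p = 0.03125, adjusted p = 0.0938). The widest gap was in MED1 replicate 2, with 406.5 bp on the gene-poor chromosomes and 421 bp on the other autosomes.

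The share of peaks met by a peak of the other replicate was 92.1% and 76.6% for SMC1A, against 91.9% and 75.3%. It was 51.1% and 79.9% for NIPBL, against 56.1% and 79.2%, and 98.9% and 32.6% for MED1, against 99.0% and 33.7%. The mean difference was -0.676 ± 2.25 points (SD, n = 6, exact permutation p = 0.688, adjusted p = 0.688). The control estimate at SMC1A summits, which sets how many fragments a call needs, had medians of 3.76 and 3.72 on the gene-poor chromosomes, against 4.23 and 4.18. It was lower in NIPBL replicate 2 as well, at 5.74 against 6.05, and alike in the other 3 libraries (mean log2 ratio -0.07 ± 0.08, SD, n = 6, exact permutation p = 0.25, adjusted p = 0.45). A lower control estimate asks for fewer fragments per call. Its part in the densities was not tested.

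One class of SMC1A regions differed in height. Those with NIPBL and no MED1 had median fold enrichments of 8.57 and 9.57 on chromosomes 4, 13 and 18 (150 regions), against 14.9 and 17.3 on the other autosomes (1483 regions). The class is a mixture of weak and strong sites, with quartiles of 3.70 and 22.5 in replicate 1, against 4.19 and 25.0, so its median moves with the mix. Over 10-fold in both libraries were 48.7% (40.4 to 57.0), against 55.9% (53.3 to 58.4), and these intervals overlap. Chromosomes 4 and 13 had medians of 4.86 and 9.42 in replicate 1 and 7.65 and 9.93 in replicate 2, while chromosome 18, at 13.6 and 17.8, lay near the other autosomes. The lowest medians of all were on chromosome 20, at 4.73 and 5.57. The difference is therefore not shared by all 3 chromosomes and not confined to them. In the other SMC1A classes medians were close, at 11.5 and 12.8 with neither partner, against 11.5 and 12.9, and at 4.34 and 5.21 with both, against 4.37 and 5.32.

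Regions lay farther apart on the gene-poor chromosomes. The median distance between the middles of neighbouring SMC1A regions was 34.6 kb, against 23.3 kb. For NIPBL it was 47.2 kb, against 29.1 kb, and for MED1 42.8 kb, against 26.7 kb. From an SMC1A region to the nearest MED1 region the median was 96.6 kb on chromosomes 4, 13 and 18, against 44.0 kb, and to the nearest NIPBL region 118 kb, against 69.7 kb. In the other direction the distances stayed short, with a median of 0.488 kb from a MED1 region to the nearest SMC1A region, against 0.646 kb, and of 0.235 kb from a NIPBL region to the nearest MED1 region, against 0.239 kb. The upper quartile of the distance from NIPBL to MED1 was longer, however, at 11.1 kb against 3.64 kb, and 65.9% of NIPBL regions overlapped MED1 (62.8 to 68.8), against 70.6% (69.7 to 71.5).

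NIPBL regions were less often clustered on these chromosomes, and broad regions made up a like share of the MED1 regions. With regions at most 12.5 kb apart joined, clusters of at least 2 held 46.0% of the 985 NIPBL regions (42.8 to 49.2), against 56.0% (55.1 to 57.0), and clusters of at least 5 held 10.2% (8.34 to 12.2), against 14.1% (13.4 to 14.8). The joining distance was fixed, so fewer regions per Mb can by themselves lower these shares. MED1 regions over 2000 bp made up 8.32% (6.76 to 10.1), against 8.27% (7.81 to 8.74). Their number was 92 over a span of 364 Mb, against 1119 over 2424 Mb, so per Mb they were fewer. The widest on chromosome 13 ran from 99948619 to 99960661, 12043 bp, with 5 NIPBL and 4 SMC1A regions. The widest on chromosome 18 ran from 60978380 to 60988538, 10159 bp, with 3 of each. Both were single peaks in MED1 replicate 2, while MED1 replicate 1 had 8 and 6 peaks within them.

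The strongest NIPBL regions with both partners were ranked by the mean percentile of fold enrichment over both NIPBL lists. Of the 6 described here, 5 left this class when each list was held to its 14972 strongest peaks, and the second of chromosome 4 stayed in it. On chromosome 4 the first ran from 105981569 to 105982701, with fold enrichments of 13.6 and 12.9 for NIPBL, 7.59 and 10.6 for SMC1A and 10.9 and 24.5 for MED1. The second, from 40151432 to 40152505, had the opposite balance of partners, with NIPBL at 13.8 and 10.8, SMC1A at 21.9 and 25.0 and MED1 at 3.29 and 5.52. On chromosome 13 they ran from 114832643 to 114833796 and from 42951320 to 42953430. In the first SMC1A was at 5.08 and 9.39 and MED1 at 10.48 and 27.1, and in the second SMC1A was at 9.43 and 8.32 and MED1 at 15.1 and 32.0. On chromosome 18 they were weaker, from 4639399 to 4640274 with NIPBL at 11.3 and 7.53, and from 13612247 to 13612940 with NIPBL at 8.62 and 8.06.

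Strong NIPBL with fewer partners was found on each of the 3 chromosomes. The strongest that met MED1 but not SMC1A was on chromosome 18 from 3261638 to 3262370, with NIPBL at 10.52 and 8.81 and MED1 at 5.00 and 9.04, and no SMC1A library had a peak there. With SMC1A and no MED1 it lay on chromosome 13 from 33415084 to 33415743, with NIPBL at 8.81 and 7.19 and SMC1A at 4.62 and 3.93. MED1 replicate 2 had a peak of 10.2 there and MED1 replicate 1 none. With neither partner it lay on chromosome 4 from 104119331 to 104119832, with NIPBL at 8.76 and 6.43, and MED1 replicate 2 again had a peak, of 3.75. The last 2 classes therefore rest on the shorter MED1 list, and without MED1 replicate 1 both regions left their class. The region on chromosome 13 also left it with 14972 peaks per list.

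Lone SMC1A regions were named by their SMC1A strength, and the other regions by NIPBL strength or MED1 width. Their high values therefore do not show that lone SMC1A sites are stronger than partnered ones. The strongest on chromosome 13, from 28403935 to 28404670, had SMC1A fold enrichments of 53.4 and 58.4, and the next, from 49343128 to 49343699, had 44.4 and 49.8. On chromosome 4 the region from 8470361 to 8470954 had 51.6 and 51.2, and that from 180788369 to 180788938 had 43.8 and 53.5. On chromosome 18 the region from 12236891 to 12237665 had 48.6 and 59.6, and that from 46190399 to 46191034 had 46.2 and 53.2. No MED1 or NIPBL library had a peak at 5 of these 6 regions. The exception was the first of chromosome 18, where MED1 replicate 2 had a peak of 5.01, and without MED1 replicate 1 this region too left its class. All 6 were between 570 and 775 bp wide, narrow beside the broad MED1 regions.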

How the data were processed

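SMC1A, NIPBL and MED1 were mapped by ChIP-seq in GM12878. Trimmomatic 0.33, BWA 0.7.12, MACS2 2.1.0 and hg19 are named in the submitters' processing notes, without settings. The authors made a separate peak list from each ChIP library, with the pooled whole cell extracts as control, per the labels. Fold enrichment as deposited is the linear ratio of summit signal to local control. The authors' files also hold −log10 p and −log10 q for each summit. The smallest −log10 q was 1.302. The deposited score column was not used. Read totals were not used here. Pileup and control estimate were solved from each peak's fold enrichment and p-value, and 100% of pileups came out whole within 0.05.

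Chromosomes 1 to 22 were used. Genes were counted by chromosome in RefSeq (GRCh38.p14) without their coordinates and divided by the hg19 span of the peaks. Peaks were merged, overlapped (at least 1 bp) and binned by the middle of a region, in Python 3.11.15 with pandas 2.3.3 and scipy 1.17.1. Chromosome sets were compared by an exact permutation test over libraries with Benjamini-Hochberg adjustment. Shares have exact Clopper-Pearson 95% intervals, for counting error only. The steps were tested on simulated data. Alternatives were stricter or equal-sized lists, other bins, overlaps and gaps, and libraries or chromosomes left out.

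The members, measures and tests were chosen with earlier results of these data known. Named were the 5 bins with most MED1 and the 5 with most NIPBL regions, the 2 longest stretches per chromosome with at least 5 SMC1A regions, the strongest regions of each class and the widest MED1 regions. Same-numbered replicates of different factors share a number only.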

Additional observations from a re-analysis of the deposited data

Results flagged for a closer look

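Some measures moved one way in all libraries of a factor and the opposite way in all libraries of another, on chromosomes 4, 13 and 18 relative to the other autosomes. These differences between factors were not tested, since 2 libraries against 2 cannot give a p below 0.33. The share of peaks without a partner region was higher by a mean of 3.62 points for SMC1A and by 4.17 for NIPBL, and the MED1 mean was -3.14 points. The difference was 6.77 points between SMC1A and MED1 and 7.31 between NIPBL and MED1. Median fold enrichment had a mean log2 ratio of 0.0814 for SMC1A, 0.0067 for NIPBL and -0.0172 for MED1, so that SMC1A lay 0.0986 and NIPBL 0.0239 above MED1. The share of peaks found in the other replicate was higher by 0.730 points for SMC1A, and the MED1 value was -0.649 points, a difference of 1.38 points.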

How the results depend on the processing

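The density on chromosomes 4, 13 and 18 was lower under every alternative run: peaks with −log10 q of at least 5, the 14972 strongest peaks of each list, each library or each of the 3 chromosomes left out, without chromosomes 19 and 22 among the others, and per Mb of bins with a peak. With a library left out the mean log2 density ratio was -0.683 to -0.606. Over the same settings the other values ran from 0.159 to 3.45 points for the share without partners, 0.012 to 0.0341 for log2 fold enrichment, -0.0317 to -0.022 for log2 width, -1.38 to 0.0406 points for recurrence and -0.0831 to -0.049 for the log2 control estimate. The log2 density ratio of SMC1A minus MED1 ran from 0.329 to 0.379, of SMC1A minus NIPBL from 0.0382 to 0.169 and of NIPBL minus MED1 from 0.185 to 0.316. Recurrence turned to 0.0719 points at −log10 q of at least 5. With 14972 peaks per list log2 fold enrichment turned to -0.00514, and the SMC1A difference in the share with neither partner was 2.46 points. The cause was not tested.

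The share with neither partner, as a difference from the other autosomes, ran from 3.45 to 7.16 points for SMC1A, 1.12 to 4.64 for NIPBL and -7.07 to -0.716 for MED1 with a library left out. Bins with SMC1A only ran from 7.37 to 10.9 points and long stretches from 11.3 to 14.4. The SMC1A difference was 2.36 without chromosome 4. With regions found in either replicate it was 6.52, that of MED1 -2.29 and that of stretches 11.1. Stretches of at least 2 Mb gave 9.73. The SMC1A and NIPBL differences turned to -4.77 and -1.13 when matched on MED1 regions per bin, but were 1.16 and 0.341 when so matched without MED1 replicate 1 and 0.361 and 0.619 with regions in either replicate. The cause was not tested.

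With libraries paired by replicate number as a block, the differences in log2 density ratio were again 0.354, 0.104 and 0.25, with an exact permutation p of 0.5, the smallest that 2 pairs can give. Deviations of same-numbered libraries over bins correlated at -0.0955 (SMC1A and MED1), 0.103 (SMC1A and NIPBL) and -0.129 (NIPBL and MED1). The crossed pairing of NIPBL and MED1, added after seeing the data, called 0 differences, as did all other pairings. Depth limits detection to summits of at least 7 to 11 fragments. Densities by chromosome length were not run.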
